A study of Mus musculus with 10 samples.

Results

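Kinesins are motor proteins that use ATP to move along microtubules or to take them apart. The genes described here are the 43 protein-coding genes of the deposited count table, out of 54532 genes of all kinds and 22046 protein-coding ones, whose symbol begins with Kif followed by a digit or by the letter c. The rule divides them into 12 mitotic kinesins, which act in the spindle and in cytokinesis, and 31 other members. One match by name, Kif1bp, encodes a protein that binds kinesins and is itself no motor, and the kinesin Cenpe carries a symbol that the rule does not catch. The RNA came from mouse splenic B cells and was sequenced in 10 libraries. In the fibrosis group, of 5 libraries, liver fibrosis had been induced by CCl4 (carbon tetrachloride, a compound toxic to hepatocytes) injected into the peritoneum over 4 weeks, and the 5 control libraries were of wildtype mice. The sources used here do not give strain, sex, age, vehicle treatment or the way the B cells were isolated. They also do not say that each library is a separate animal, and the p-values therefore reflect the variation among these libraries alone, some of which may be technical.

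In a dividing cell, plus-end-directed kinesins push the spindle poles apart, chromokinesins carry chromosome arms outward, depolymerising kinesins trim microtubule ends, and a further group bundles the central spindle and directs the final cut between the daughter cells. Most mitotic kinesin genes are switched on late in the cell cycle, in G2 and mitosis, and are nearly silent in resting lymphocytes. The other members mainly carry vesicles, organelles and ciliary cargo in resting and dividing cells alike, and several of them are best known from neurons.

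The libraries held 13439100 to 17954551 counts, and counting precision is limited by these totals. Of 14283 genes tested, 2654 (18.6%) were called higher in fibrosis and 2451 (17.2%) lower, 35.7% in all, with calls made at an adjusted p below 0.05. All 12 genes of a B cell identity list were measured, and 5 of them were called higher and 0 lower. RNA of other cell types was also present, and its levels differed between the groups. Of 17 erythroid genes tested, 12 were called lower and 0 higher, with summed levels of 1049 to 7930 CPM (a gene's count relative to the scaled library total) in fibrosis and 4241 to 6814 CPM in control libraries. Of 9 B cell progenitor genes, 8 were called lower (108 to 134 CPM against 214 to 271 CPM), and all 7 platelet genes were called higher (234 to 1059 CPM against 131 to 165 CPM). Fibrosis library 4 held the highest erythroid sum, and the haemoglobin genes were not among those called. Fibrosis libraries 4 and 5 also differed from libraries 1 to 3. Macrophage and monocyte genes summed to 2623 and 2873 CPM in them, against 814 to 1111 CPM in libraries 1 to 3. Neutrophil genes summed to 3466 and 4415 CPM, against 356 to 1369 CPM. B cell identity genes summed to 21179 and 20823 CPM, against 25416 to 31463 CPM. No gene of these lists was at 0 in all libraries.

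Promoters of most mitotic kinesins carry the letters of a cell cycle element, a property that the rule did not use. A cell cycle genes homology region (CHR) is a short element, known from promoters of genes expressed in G2 and mitosis, that is bound by MuvB complexes, often together with CCAAT boxes bound by the factor NF-Y. Promoter sequences from RefSeq on GRCm38.p6, covering 250 bases before to 50 bases after the annotated start, were found for 33 members, 11 of them mitotic. They were searched on both strands for CHR letters (TTTGAA or TTTAAA), for CCAAT and for E2F-like letters (TTTCCCGC, TTTGGCGC or TTTGGCGG). CHR letters lay in 10 of 11 mitotic promoters (90.9%), in 4 of 26 promoters of 22 other members (15.4%) and in 27.6% of all 32851 mouse promoters of this length. Within 60 bases of the start, a window chosen after the matches had been seen, the shares were 81.8%, 11.5% and 9.12%. CCAAT lay in 63.6% of the mitotic, 38.5% of the other and 37.4% of all promoters. CHR letters and CCAAT occurred together in 7 of 11 mitotic promoters (63.6%), in 11.5% of those of other members and in 10.7% of all. E2F-like letters were found in 2 mitotic promoters, those of Kif15 and Kif18a, and in 2.1% of all promoters. The windows of Kif2c, Kif4 and Kif14, all counted with CHR letters, lay wholly inside the gene bounds of the count table. They may therefore not surround the start used in these cells. A match is a description of letters and not evidence of a bound site.

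The 100 bases before the start are shown for 4 mitotic kinesins with CHR letters there, with CHR and CCAAT letters on either strand in capitals. Kif11 lies at chr19:37376282-37376381 (plus strand), Kif14 at chr1:136467748-136467847 (plus strand), Kif15 at chr9:122950981-122951080 (plus strand) and Kif22 at chr7:127042421-127042520 (minus strand), each written 5′ to 3′ on the gene's strand. RefSeq starts can differ from the gene bounds of the count table: the Kif14 stretch lies inside those bounds, and those of Kif15, Kif22 and, shown later, Kifc1 lie partly inside them. In Kif15 the E2F-like letters, left in lower case, directly precede the CHR letters.
Kif11: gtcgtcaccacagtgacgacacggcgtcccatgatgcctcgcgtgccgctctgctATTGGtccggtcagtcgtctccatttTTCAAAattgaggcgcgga
Kif14: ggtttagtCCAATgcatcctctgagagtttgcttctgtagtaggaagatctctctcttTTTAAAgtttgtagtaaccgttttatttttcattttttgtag
Kif15: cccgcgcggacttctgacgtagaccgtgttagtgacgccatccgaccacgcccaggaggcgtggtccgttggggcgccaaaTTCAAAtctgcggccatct
Kif22: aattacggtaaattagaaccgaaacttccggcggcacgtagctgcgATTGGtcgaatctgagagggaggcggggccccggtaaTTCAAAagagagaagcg

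The next pair shows the mitotic member with the largest fall in the libraries, Kif18b, at chr11:102925125-102925224 (minus strand), and the one mitotic member searched that had no CHR letters in the window, Kif18a, at chr2:109280638-109280737 (plus strand). In this stretch Kif18b holds 2 CCAAT boxes, and its CHR letters lie just after the start, outside it. A non-mitotic member whose level was not called different, Kif1c, at chr11:70700448-70700547 (plus strand), is shown for contrast and holds none of the letters. The non-mitotic members with CHR letters were Kif1a, called higher, Kifc5b, called lower, and Kif26b and Kif27, too low to be tested. The remaining non-mitotic members that were searched and called, in either direction, had no CHR letters.
Kif18b: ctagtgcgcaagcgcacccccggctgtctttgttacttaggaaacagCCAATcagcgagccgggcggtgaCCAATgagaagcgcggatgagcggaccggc
Kif18a: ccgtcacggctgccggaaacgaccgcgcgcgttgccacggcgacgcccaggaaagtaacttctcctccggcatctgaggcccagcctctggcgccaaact
Kif1c: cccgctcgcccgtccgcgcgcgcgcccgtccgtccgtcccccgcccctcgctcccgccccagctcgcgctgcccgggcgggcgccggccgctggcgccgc

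**Figure D1:**
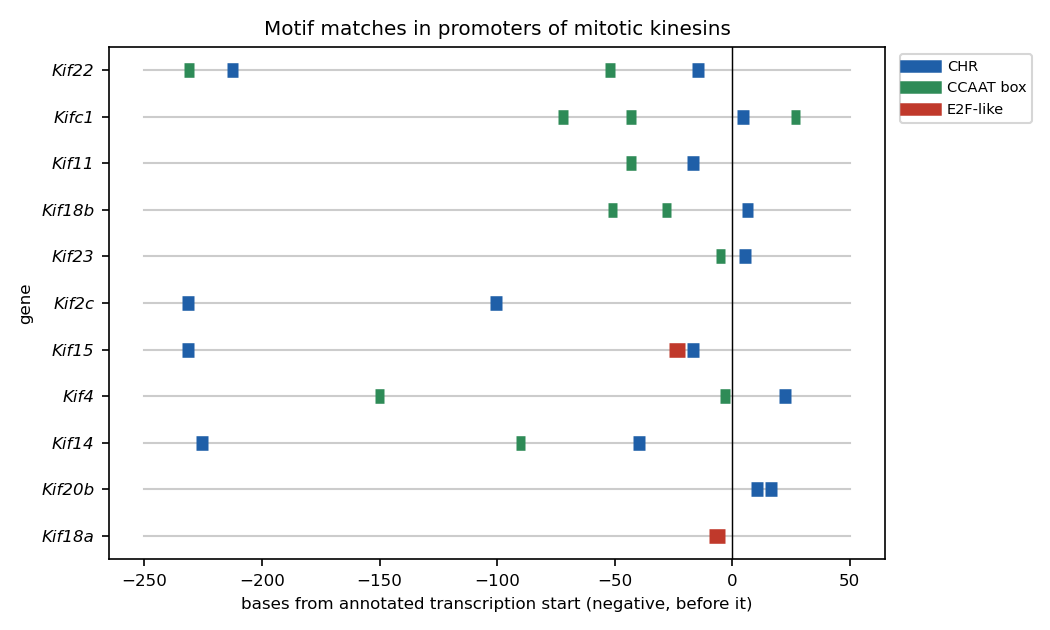
Positions of CHR, CCAAT and E2F-like letters in the promoters of the 11 mitotic kinesins searched, in bases from the annotated start (x axis, negative before it), 1 gene a line. CHR letters are seen in 10 of the 11 genes, Kif18a being the exception, and CCAAT letters in 7.

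Nearly all mitotic kinesins were lower in fibrosis. Of the 12, all of which passed the filter on low counts, 11 fell, 0 rose and Kif20b was not called, against 17.2% of all tested genes called lower. The same 11 had every fibrosis library below every control library, a pattern seen in 14.0% of all tested genes. The falls among the 11 ran from a log2 change of -1.60 to -0.59, and the median over the 12 was -1.15, beside 0.05 over all tested genes. Among all tested genes 800 had a log2 change of -1 or below, and 7 of the 12 mitotic kinesins were among them. Summed over the 12, the level was 192 to 263 CPM in fibrosis and 479 to 608 CPM in control libraries. In bulk samples, fewer cells of a dividing type and less of these RNAs per cell cannot be told apart.

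**Figure D2:**
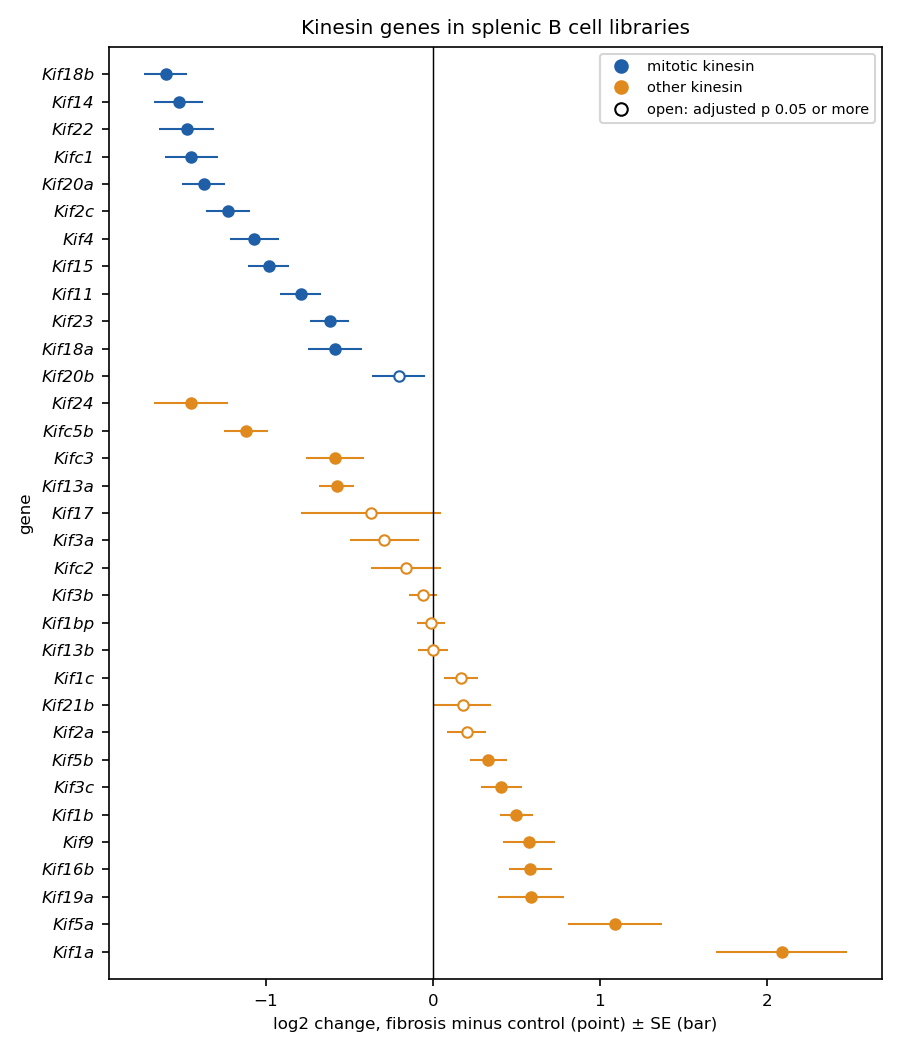
Log2 change of each of the 33 tested members, fibrosis minus control (x axis), as a point with a bar of ± 1 SE, blue for mitotic and orange for other kinesins, open where the adjusted p is 0.05 or more. All 12 mitotic points lie below 0, and the other members lie on both sides of it.

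The motors that build and hold the bipolar spindle fell by different amounts. Kif11 (chromosome 19, 37376403 to 37421859, plus strand), also called Eg5, slides antiparallel microtubules apart and so separates the poles. Its level was 33.1, 30.6, 46.1, 46.6 and 35.9 CPM in fibrosis libraries 1 to 5 and 67.02, 65.7, 69.5, 57.8 and 72.1 CPM in control libraries 1 to 5. The groups did not overlap, with fibrosis libraries 3 and 4 nearest to the controls, and the log2 change was -0.79 ± 0.12 (SE, adjusted p = 0.000372). Kif15 (chromosome 9, 122951046 to 123018733, plus strand), which helps to keep the spindle bipolar, was at 14.3, 13.7, 18.96, 20.2 and 16.3 CPM in fibrosis libraries 1 to 5 and 31.1, 31.4, 33.5, 30.8 and 38.1 CPM in control libraries 1 to 5. Here too fibrosis libraries 3 and 4 were the highest of their group, below every control, and the log2 change was -0.98 ± 0.12 (SE, adjusted p = 7.71e-05). Kifc1 (chromosome 17, 33875666 to 33890661, minus strand) is a minus-end-directed motor that focuses the poles, and it stood at 37.4, 25.3, 31.4, 28.7 and 19.97 CPM in fibrosis libraries 1 to 5 and 73.6, 80.2, 62.9, 73.5 and 99.04 CPM in control libraries 1 to 5. Every fibrosis library was far below the lowest control, and the log2 change was -1.45 ± 0.16 (SE, adjusted p = 4.27e-05). Kifc1 has a near-identical copy on the same chromosome, Kifc5b, described with the other members, so the division of reads between them is uncertain.

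Kinesins that shorten microtubules or control their ends included the member with the largest fall. Kif18b (chromosome 11, 102905529 to 102925124, minus strand) acts on the plus ends of astral microtubules and was at 19.98, 15.5, 15.97, 17.2 and 12.4 CPM in fibrosis libraries 1 to 5 and 50.6, 48.6, 43.6, 43.8 and 58.7 CPM in control libraries 1 to 5. The fibrosis libraries lay close together, well below the controls, and the log2 change was -1.60 ± 0.13 (SE, adjusted p = 1.05e-05). Kif2c (chromosome 4, 117159639 to 117182639, minus strand), also called MCAK, takes microtubules apart at centromeres and corrects faulty attachments. It was at 16.2, 12.1, 14.2, 19.4 and 12.8 CPM in fibrosis libraries 1 to 5 and 37.4, 33.6, 30.6, 32.9 and 39.9 CPM in control libraries 1 to 5. No library of one group entered the range of the other, and the log2 change was -1.23 ± 0.13 (SE, adjusted p = 3.69e-05). Kif18a (chromosome 2, 109280738 to 109341747, plus strand) limits the length of kinetochore microtubules so that chromosomes align. Its levels were the lowest of the 12, at 4.64, 4.93, 6.94, 6.42 and 6.31 CPM in fibrosis libraries 1 to 5 and 8.09, 8.97, 11.1, 7.81 and 7.87 CPM in control libraries 1 to 5. The groups were separated by less than for Kif18b or Kif2c, fibrosis library 3 being nearest to the controls, and the log2 change was -0.59 ± 0.16 (SE, adjusted p = 0.012).

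Both chromokinesins, which bind chromosome arms and push them toward the spindle equator, fell. Kif22 (chromosome 7, 127027729 to 127042471, minus strand), also called Kid, had the highest mean CPM of the 12 in controls and was at 45.8, 27.8, 35.1, 36.4 and 22.6 CPM in fibrosis libraries 1 to 5 and 96.9, 92.4, 75.6, 91.8 and 109 CPM in control libraries 1 to 5. The highest fibrosis library, library 1, was still below the lowest control, and the log2 change was -1.47 ± 0.17 (SE, adjusted p = 4.79e-05). Kif4 (chromosome X, 100625737 to 100727214, plus strand), which in addition works with Prc1 on the central spindle, was at 12.9, 11.9, 16.8, 18.6 and 11.2 CPM in fibrosis libraries 1 to 5 and 28.1, 30.05, 28.9, 27.2 and 35.4 CPM in control libraries 1 to 5. Fibrosis libraries 3 and 4 were again the highest of the group without reaching the controls, and the log2 change was -1.07 ± 0.14 (SE, adjusted p = 0.000137).

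Among the kinesins of the central spindle and cytokinesis, 3 of 4 fell. Kif20a, on chromosome 18, moves the chromosomal passenger complex to the central spindle and was at 24.3, 17.9, 23.7, 19.99 and 15.3 CPM in fibrosis libraries 1 to 5 and 52.5, 52.2, 45.8, 51.1 and 60.1 CPM in control libraries 1 to 5. All fibrosis libraries were below all controls, and the log2 change was -1.37 ± 0.13 (SE, adjusted p = 1.55e-05). Kif14 (chromosome 1, 136466343 to 136531511, plus strand), which brings citron kinase to the midbody, was at 10.6, 8.01, 10.3, 9.201 and 6.896 CPM in fibrosis libraries 1 to 5 and 28.05, 23.4, 24.7, 21.2 and 32.05 CPM in control libraries 1 to 5. The groups were wide apart, and the log2 change was -1.52 ± 0.15 (SE, adjusted p = 1.91e-05). Kif23 (chromosome 9, 61915905 to 61946774, minus strand) forms the centralspindlin complex with Racgap1 and was at 22.6, 20.1, 25.7, 27.4 and 18.8 CPM in fibrosis libraries 1 to 5 and 34.1, 33.1, 35.2, 32.4 and 40.9 CPM in control libraries 1 to 5. Its groups did not overlap, although fibrosis libraries 3 and 4 came near to the controls, and the log2 change was -0.62 ± 0.12 (SE, adjusted p = 0.00125). Kif20b (chromosome 19, 34922361 to 34975745, plus strand), which acts late in cytokinesis, was at 9.53, 11.6, 17.8, 12.5 and 13.1 CPM in fibrosis libraries 1 to 5 and 14.7, 14.5, 17.98, 12.2 and 14.96 CPM in control libraries 1 to 5. Fibrosis library 3 was just below the highest control and libraries 1 and 2 were below all of them, so the groups overlapped. The log2 change of -0.20 ± 0.16 (SE, adjusted p = 0.347) did not pass the test.

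**Figure D3:**
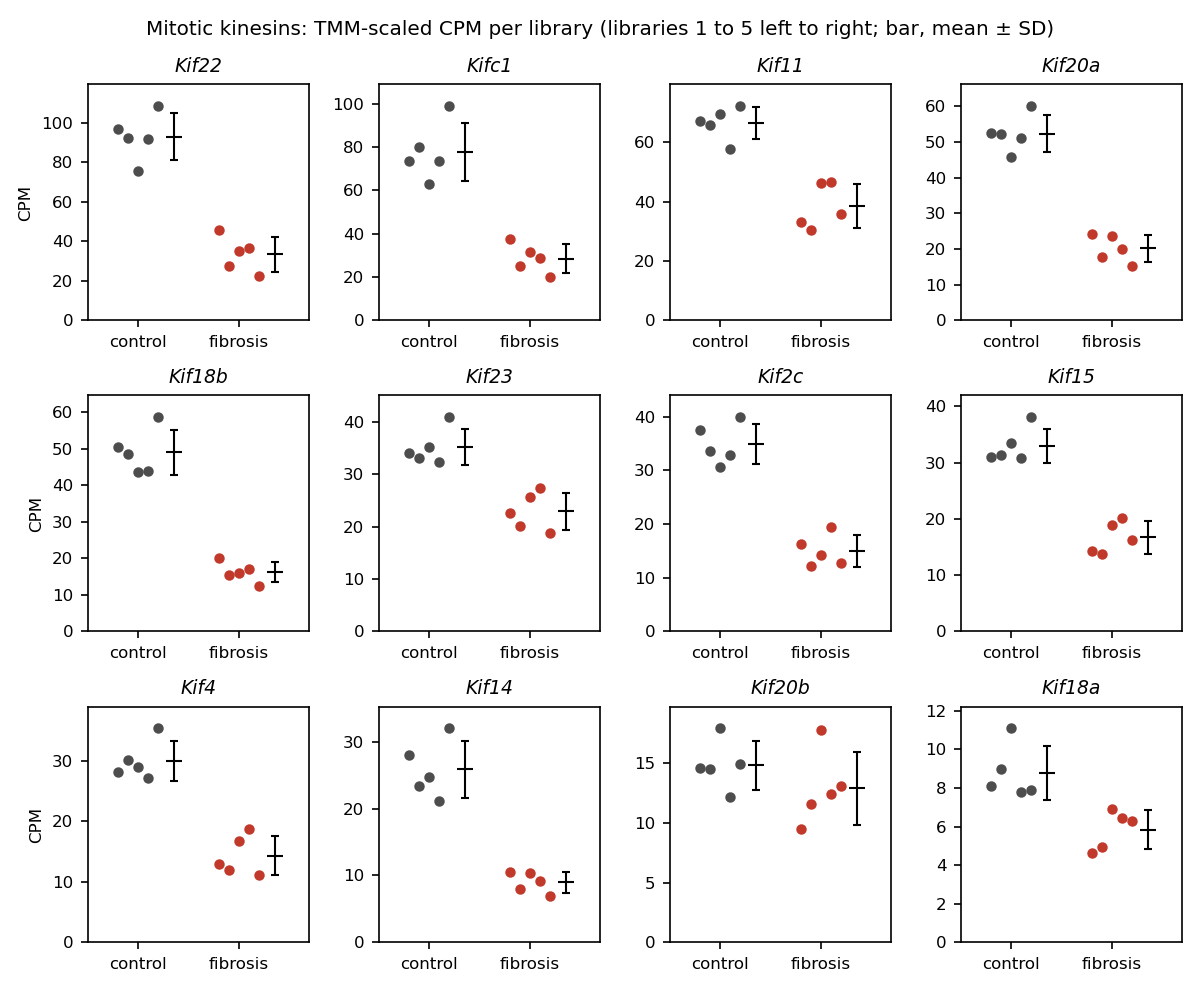
TMM-scaled CPM (y axis, starting at 0) of the 12 mitotic kinesins in each control and fibrosis library, libraries 1 to 5 from left to right in each group, with bars of mean ± SD. The groups are separate in every panel but that of Kif20b.

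The libraries of each group were not alike. Control library 5 was the highest control for 10 of the 12 mitotic kinesins, and fibrosis library 5 was the lowest of its group for 7. As a mean log2(CPM + 0.5) over the 12 relative to the control mean, fibrosis libraries 1 to 5 stood at -1.01, -1.25, -0.88, -0.89 and -1.30, and the controls between -0.13 and 0.19. The markers of other cell types also differed among libraries. On the same scale, the erythroid genes were at -1.54, -2.35, -1.35, -0.44 and -2.18 in fibrosis libraries 1 to 5 and the B cell progenitor genes at -1.07, -1.17, -1.38, -0.99 and -0.96. Fibrosis library 4 thus had the smallest erythroid deficit, with a mitotic level like that of library 3. Among fibrosis libraries, library 3 had the lowest progenitor mean and the highest mitotic mean. Library 5 had the highest progenitor mean and the lowest mitotic mean. Erythroblasts and B cell progenitors are dividing cells. The part of the progenitor genes in the mitotic result was not tested. The erythroid mean of a library was also entered in the fit as a covariate. Control libraries had erythroid means of -0.22 to 0.30, above every fibrosis library, so covariate and group cannot be told apart by this fit. In it all 12 mitotic kinesins kept a log2 change below 0, with a median of -0.62. Of these 1 was called, Kif18b at -1.26 ± 0.24 (SE, adjusted p = 0.038). Over all genes 91 were called higher and 74 lower. Of 7 germinal centre genes, 5 were called higher and 0 lower, beside 18.6% of all tested genes called higher. They summed to 123 to 169 CPM in fibrosis and 89.4 to 115 CPM in control libraries. Bcl6, which was not called, held much of these sums, at means of 85.0 CPM in fibrosis and 69.1 CPM in control libraries. The part of germinal centre cells in the mitotic result was not tested.

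**Figure D4:**
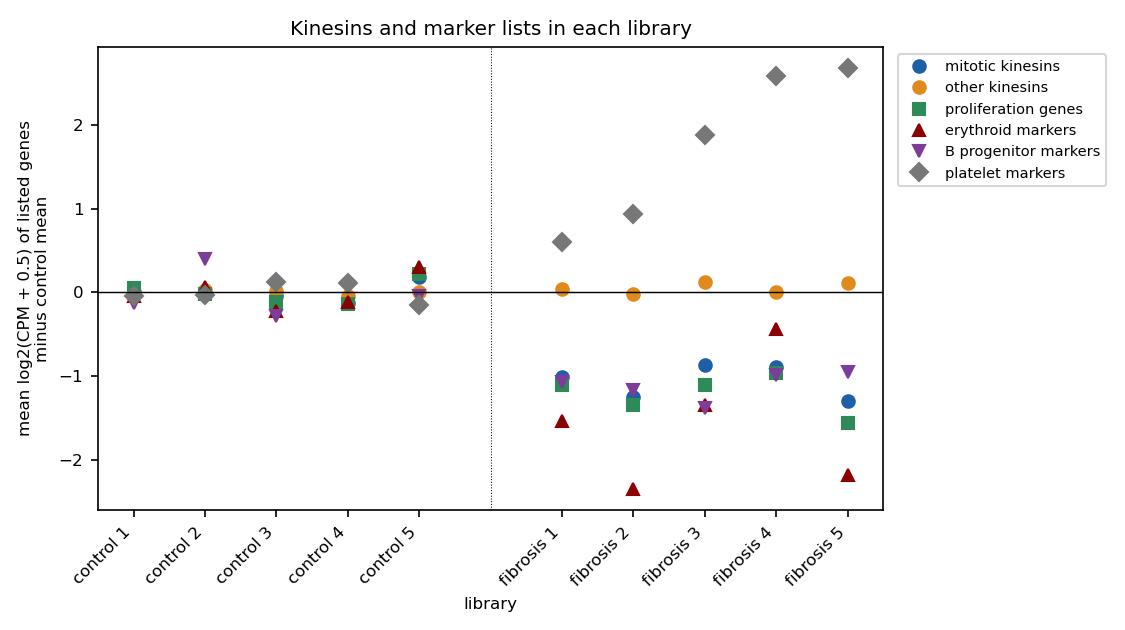
Mean log2(CPM + 0.5) minus the control mean (y axis) of the mitotic and other kinesins and of 4 gene lists in each of the 10 libraries (x axis). The mitotic kinesins lie between -1.30 and -0.88 in the fibrosis libraries, the other kinesins between -0.02 and 0.12, and the platelet markers between 0.60 and 2.68.

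Transcripts of most listed partners of mitotic kinesins, and of all listed proliferation genes, were called lower, beside 17.2% of all tested genes. Of 11 midzone and chromosomal passenger genes, 10 fell and 0 rose, with a median log2 change of -1.25. They include the citron kinase gene Cit at -1.78 ± 0.18 (SE), the partner of Kif14, and Anln at -1.43 ± 0.13, which encodes the ring scaffold anillin. The passenger complex that Kif20a carries was represented by Incenp at -1.21 ± 0.11 and Aurkb at -1.21 ± 0.14. The exception was Cep55, an abscission protein, at 0.29 ± 0.19 (SE, adjusted p = 0.251). Of 12 spindle partners, 8 fell and 0 rose, with a median of -0.78, and Ckap5, Numa1, Mapre1 and Sgo2a were not called. Tpx2, which targets Aurora A and Kif15 to the spindle, was at -1.19 ± 0.13, the Aurora A gene Aurka at -1.43 ± 0.16, Tacc3 at -0.97 ± 0.12 and Hmmr at -1.27 ± 0.19. Cenpe, the kinesin that the rule does not catch, was called lower at -0.605 ± 0.165 (SE, adjusted p = 0.0116), with overlapping groups. All 14 proliferation genes fell, with a median of -1.23, among them Cdc20 at -1.30 ± 0.12, Ccnb2 at -1.35 ± 0.13, Mcm5 at -1.25 ± 0.12 and Mcm7 at -1.41 ± 0.14.

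Among 11 genes encoding regulators of mitotic promoters, 6 fell, beside 17.2% of all tested genes, and 0 rose. The median log2 change was -0.28. The activators that are themselves made in cycling cells showed the larger values, Mybl2 being at -1.63 ± 0.15 (SE), E2f1 at -1.26 ± 0.11 and Foxm1 at -1.21 ± 0.12. E2f4, not counted among these activators, was at -0.84 ± 0.13 (SE). The 4 listed Lin subunits of the MuvB core, the complex that binds CHR elements, did not pass the test and lay between -0.28 for Lin52 and 0.02 for Lin37. Rbbp4, a further subunit of that core with roles in other chromatin complexes too, was called lower at -0.23 ± 0.08 (SE, adjusted p = 0.0378).

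The other members did not move together. Of 31, 21 passed the filter on low counts, and of these 8 rose (38.1%, beside 18.6% of all tested genes), 4 fell (19.0%, beside 17.2%) and 9 were not called. In 6 of the 21 all fibrosis libraries were above all controls, beside 11.4% of all tested genes. In 3 all were below, beside 14.0% of all tested genes. Their log2 changes had a median of 0.17 and a range from -1.45 to 2.09. With scaling by library size alone, 5 rather than 8 rose, and the median of all tested genes moved by -0.11. With the erythroid mean as a covariate, which did not overlap between the groups, 0 of the 21 were called in either direction.

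The members with the largest rises are best known from neurons, and their levels were low. Kif1a (chromosome 1, 93015464 to 93101951, minus strand), the carrier of synaptic vesicle precursors, was at 2.81, 1.11, 1.62, 3.17 and 3.84 CPM in fibrosis libraries 1 to 5 and 0.765, 0.8805, 0.266, 0.509 and 0.485 CPM in control libraries 1 to 5. Every fibrosis library exceeded every control, over a wide range, and the log2 change was 2.09 ± 0.39 (SE, adjusted p = 0.00121). Kif5a (chromosome 10, 127225696 to 127263348, minus strand), the neuronal form of the conventional kinesin heavy chain, was at 1.77, 1.66, 2.09, 2.38 and 3.904 CPM in fibrosis libraries 1 to 5 and 1.15, 1.27, 1.117, 1.24 and 0.727 CPM in control libraries 1 to 5. Fibrosis library 5 was the highest, all 5 were above the controls, and the log2 change was 1.09 ± 0.28 (SE, adjusted p = 0.00845). Both were highest in fibrosis library 5. The platelet genes were also highest there, at a mean log2 level of 2.68 above controls. They stood at 2.59 in library 4 and 0.60 in library 1. The means of the germinal centre, neutrophil, dendritic cell, and macrophage and monocyte genes were highest in fibrosis library 5 too. Those of the T cell and NK cell genes were highest in fibrosis library 4. The part of platelet RNA, or of RNA of these other cells, in the rises of Kif1a and Kif5a was not tested. Without fibrosis libraries 4 and 5 together, Kif1a stood at 1.67 ± 0.40 (SE, adjusted p = 0.00651) and Kif5a at 0.75 ± 0.27 (SE, adjusted p = 0.0453).

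Smaller rises were seen in carriers of vesicles and in members linked to cilia. Kif16b (chromosome 2, 142617474 to 142901531, minus strand), a motor of early endosomes, was at 18.8, 24.5, 24.6, 18.5 and 20.2 CPM in fibrosis libraries 1 to 5 and 14.7, 14.9, 16.9, 12.95 and 11.6 CPM in control libraries 1 to 5. The groups did not overlap, and the log2 change was 0.58 ± 0.13 (SE, adjusted p = 0.00352). Kif1b (chromosome 4, 149176319 to 149307693, minus strand), which carries mitochondria and vesicles, was at 24.01, 29.8, 24.9, 26.6 and 29.5 CPM in fibrosis libraries 1 to 5 and 17.1, 20.8, 18.99, 20.02 and 18.4 CPM in control libraries 1 to 5. Again no fibrosis library reached down to the controls, and the log2 change was 0.50 ± 0.10 (SE, adjusted p = 0.00157). Kif9 (chromosome 9, 110476958 to 110525179, plus strand), known from motile cilia and flagella, was at 7.698, 9.67, 7.06, 8.41 and 9.37 CPM in fibrosis libraries 1 to 5 and 5.96, 4.29, 6.81, 6.05 and 5.15 CPM in control libraries 1 to 5. The gap between the groups was narrow, and the log2 change was 0.58 ± 0.16 (SE, adjusted p = 0.0114). Kif19a (chromosome 11, 114765388 to 114790739, plus strand), which limits the length of cilia, was at 6.96, 4.805, 6.34, 6.58 and 10.2 CPM in fibrosis libraries 1 to 5 and 4.05, 4.68, 4.202, 5.77 and 4.48 CPM in control libraries 1 to 5. Fibrosis library 2 lay inside the control range and library 5 was far above it, and the log2 change was 0.59 ± 0.20 (SE, adjusted p = 0.0322). The Kif19a call was lost with scaling by library size, without fibrosis library 5 (0.41, adjusted p = 0.0863), and without any one of control libraries 1, 2, 3 or 5 (adjusted p between 0.0636 and 0.0794).

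The remaining risers were Kif3c and Kif5b. Kif3c, a subunit of heterotrimeric kinesin, had 11.3 ± 0.671 CPM (SD) in control and 15.1 ± 2.396 CPM in fibrosis libraries with no overlap, and a log2 change of 0.41 ± 0.12 (SE, adjusted p = 0.0198). Kif5b, the conventional kinesin heavy chain found in all tissues, had 67.6 ± 9.08 CPM (SD) in control and 85.1 ± 10.6 CPM in fibrosis libraries with overlapping groups, and a log2 change of 0.33 ± 0.11 (SE, adjusted p = 0.0333). Neither call was held under scaling by library size, at adjusted p = 0.0754 for Kif3c and 0.165 for Kif5b. The Kif3c call was also lost without fibrosis library 2 (adjusted p = 0.0528) or control library 4 (adjusted p = 0.0531). That of Kif5b was lost without any one of fibrosis libraries 2, 3 or 5 or control libraries 1, 2, 4 or 5, with adjusted p between 0.0622 and 0.0907.

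Among the other members that fell, Kif24 and Kifc5b fell as far as many mitotic kinesins. Kif24 (chromosome 4, 41390745 to 41464887, minus strand), a centriolar kinesin that keeps cycling cells from forming a cilium, was at 3.73, 3.33, 8.02, 5.08 and 5.205 CPM in fibrosis libraries 1 to 5 and 15.1, 13.2, 13.5, 10.5 and 16.96 CPM in control libraries 1 to 5. Fibrosis library 3 was the highest of its group, below all controls, and the log2 change was -1.45 ± 0.22 (SE, adjusted p = 0.000311). Kifc5b (chromosome 17, 26917091 to 26932579, plus strand) was at 11.1, 10.3, 9.69, 10.5 and 7.35 CPM in fibrosis libraries 1 to 5 and 22.2, 20.7, 17.9, 20.3 and 25.2 CPM in control libraries 1 to 5. The groups were wide apart, and the log2 change was -1.12 ± 0.13 (SE, adjusted p = 6.13e-05). The Kifc5b and Kifc1 transcripts were identical at 95.9% of 2378 aligned bases, and 536 of the 2532 stretches of 100 bases in Kifc5b (21.2%) occur unchanged in Kifc1, so the Kifc5b values may in part be reads of Kifc1. Their promoters were 91.5% identical over 272 aligned bases, and the 100 bases before the start show the same pair of CCAAT boxes, in capitals, for Kifc1 at chr17:33890634-33890733 (minus strand) and Kifc5b at chr17:26916991-26917090 (plus strand).
Kifc1: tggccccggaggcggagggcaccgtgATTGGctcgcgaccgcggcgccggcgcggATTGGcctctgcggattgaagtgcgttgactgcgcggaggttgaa
Kifc5b: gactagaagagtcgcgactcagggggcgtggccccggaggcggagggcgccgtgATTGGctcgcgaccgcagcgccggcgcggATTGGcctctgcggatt

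Smaller falls were those of Kif13a and Kifc3. Kif13a (chromosome 13, 46749087 to 46929867, minus strand), which moves endosomes toward the cell surface, was at 16.2, 16.2, 14.8, 14.8 and 19.7 CPM in fibrosis libraries 1 to 5 and 24.7, 26.96, 22.98, 23.4 and 23.6 CPM in control libraries 1 to 5. Fibrosis library 5 was the highest of its group and still below every control, and the log2 change was -0.57 ± 0.10 (SE, adjusted p = 0.000959). Kifc3 (chromosome 8, 95099828 to 95202812, minus strand), a minus-end-directed motor of the cytoplasm, was at 6.11, 5.36, 3.53, 4.52 and 5.01 CPM in fibrosis libraries 1 to 5 and 8.15, 7.54, 6.44, 8.65 and 6.06 CPM in control libraries 1 to 5. Fibrosis library 1 just entered the control range, and the log2 change was -0.58 ± 0.17 (SE, adjusted p = 0.0178). This call was lost without control library 4, at adjusted p = 0.0503.

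**Figure D5:**
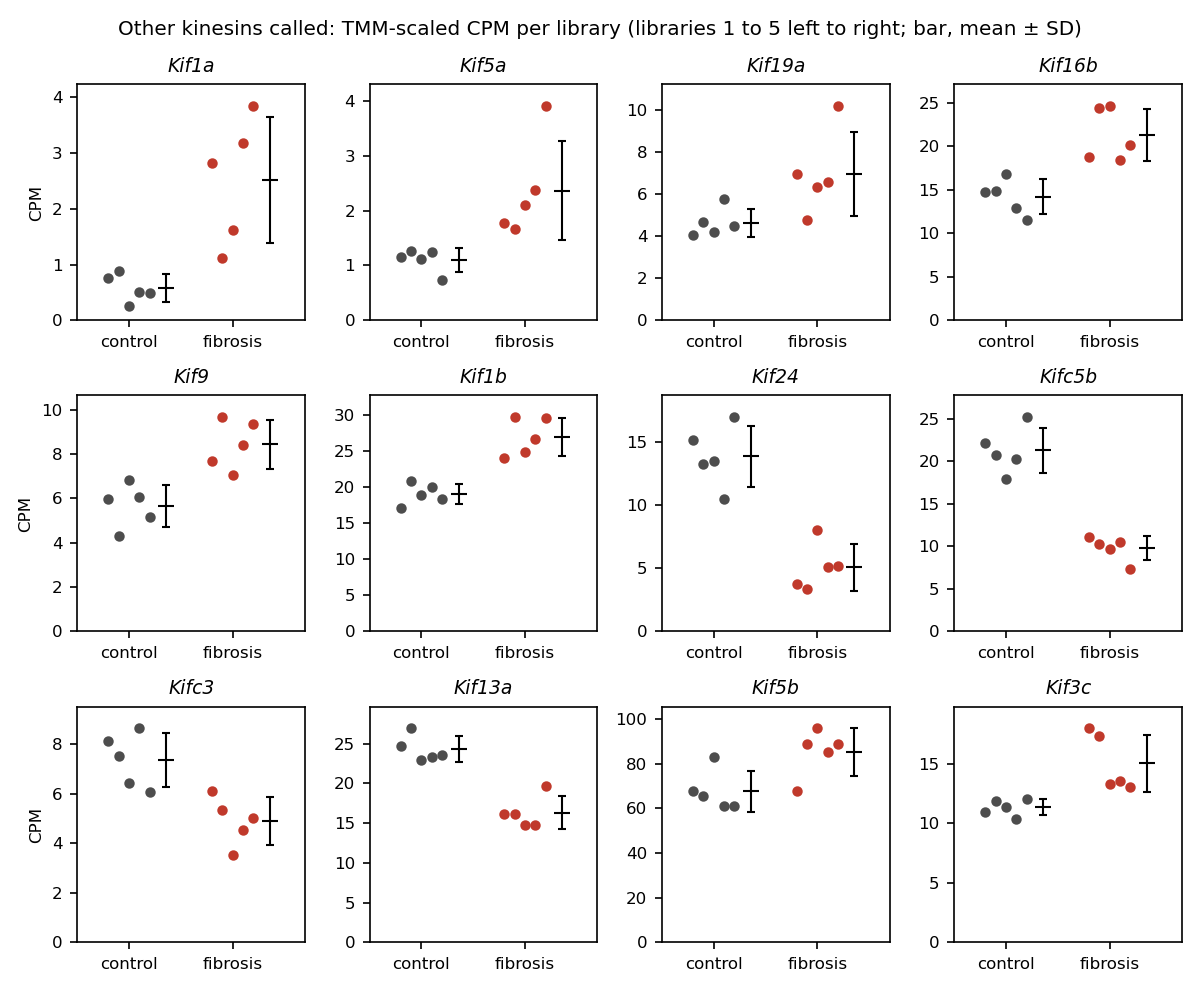
TMM-scaled CPM (y axis, starting at 0) of the 12 other kinesins called higher or lower, in each control and fibrosis library, libraries 1 to 5 from left to right in each group, with bars of mean ± SD. Kif1a and Kif5a spread widely among fibrosis libraries, and the groups overlap for Kif5b, Kif19a and Kifc3.

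Among the other members that were not called, the 4 with the highest mean CPM were Kif21b, Kif1c, Kif3b and Kif13b. Kif21b (chromosome 1, 136131389 to 136177998, plus strand), which limits microtubule growth and is abundant in lymphocytes, was at 398, 432, 426, 224 and 273 CPM in fibrosis libraries 1 to 5 and 280.2, 307, 369, 288 and 306 CPM in control libraries 1 to 5. Fibrosis libraries 1, 2 and 3 were above the controls and libraries 4 and 5 below them, and the log2 change was 0.18 ± 0.17 (SE, adjusted p = 0.445). Without fibrosis libraries 4 and 5 together it was called, at 0.44 ± 0.09 (SE, adjusted p = 0.00279), and with the erythroid score as a covariate it was -0.30 ± 0.31 (SE, adjusted p = 0.63). Kif1c (chromosome 11, 70700548 to 70731964, plus strand), a carrier of vesicles and mRNA, was at 118, 122, 93.5, 85.3 and 95.6 CPM in fibrosis libraries 1 to 5 and 94.7, 92.3, 89.7, 91.1 and 88.8 CPM in control libraries 1 to 5. Its groups overlapped, with a log2 change of 0.17 ± 0.10 (SE, adjusted p = 0.205), and it too was called without fibrosis libraries 4 and 5, at 0.29 ± 0.09 (SE, adjusted p = 0.0214). Kif3b (chromosome 2, 153291413 to 153333390, plus strand), the partner of Kif3a in ciliary transport, was at 38.98, 41.3, 41.9, 37.4 and 40.99 CPM in fibrosis libraries 1 to 5 and 41.9, 37.9, 42.8, 39.5 and 46.9 CPM in control libraries 1 to 5, a log2 change of -0.06 ± 0.08 (SE, adjusted p = 0.616). Kif13b (chromosome 14, 64647265 to 64809617, plus strand), a relative of Kif13a, was at 43.01, 44.8, 39.7, 40.1 and 35.98 CPM in fibrosis libraries 1 to 5 and 37.7, 44.6, 43.2, 36.2 and 41.7 CPM in control libraries 1 to 5, a log2 change of 0.00 ± 0.09 (SE, adjusted p = 0.992). For Kif3b and Kif13b the groups lay over each other.

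Of the other 5 members not called, Kif2a, a depolymerising relative of Kif2c that is also active outside mitosis, had a log2 change of 0.20 ± 0.12 (SE), Kif3a -0.29 ± 0.21, Kifc2 -0.16 ± 0.21, Kif17 -0.37 ± 0.42 and the kinesin-binding Kif1bp -0.01 ± 0.09. Their groups all overlapped.

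A further 10 members had too few counts to be tested. Kif7, the kinesin of Hedgehog signalling at the cilium, had 66 counts over all libraries, 18 in fibrosis and 48 in control. Kif5c, Kif26a, Kif26b, Kif21a and Kif27 had 57, 32, 28, 19 and 16 counts. Kif2b and Kif28 had 2 each, and Kif6 and Kif12 had none in 166555830 counts, which allows up to 0.018 CPM. This limit covers counting error only, and differences between the groups were not tested for these 10 genes.

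Levels were compared between genes in the authors' FPKM, a unit that corrects for gene length. In control libraries the highest was Kif21b at 25.4 ± 2.65 FPKM (SD, n = 5), followed by Kifc1 at 22.8 ± 4.02 FPKM, Kif22 at 18.97 ± 2.52 FPKM, Kif20a at 13.8 ± 1.41 FPKM, Kif11 at 13.8 ± 1.11 FPKM and Kif18b at 13.7 ± 1.78 FPKM. Most neighbours in this order were not separated. Among the 33 tested members, control ranges of neighbours did not overlap below Kif1c, Kif3b, Kif23, Kif18a and Kif5a, the last being followed by Kif1a. The others of the 32 neighbouring pairs overlapped. In fibrosis libraries Kif21b was again first at 28.5 ± 8.21 FPKM, but Kif1c at 13.9 ± 2.44 FPKM and Kif5b at 11.3 ± 1.28 FPKM came next, ahead of Kifc1 at 8.300 ± 2.11 FPKM. The 12 mitotic kinesins held 36.8% to 44.96% of all kinesin counts in control libraries and 17.8% to 28.2% in fibrosis libraries, with no overlap. Kif21b alone held 22.6% to 28.3% in controls and 24.0% to 38.6% in fibrosis libraries.

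Genes that serve the cargo-carrying kinesins, and those of the other microtubule motor, dynein, were also counted, beside 35.7% of all tested genes called in either direction. Of 21 adaptor and cargo genes tested, 4 rose and 2 fell, with a median log2 change of 0.04. Mapk8ip1, a scaffold that links vesicles to conventional kinesin, was at 1.21 ± 0.26 (SE), the light chain genes Klc4 and Klc3 at 0.36 ± 0.08 and -0.91 ± 0.21, and the mitochondrial adaptor Trak2 at -0.54 ± 0.12. Of 17 dynein and dynactin genes, 2 rose and 2 fell, with a median of -0.01. The light chain gene Dynlt3 was at 0.97 ± 0.16 and the dynein regulator Pafah1b1 at 0.30 ± 0.09, against -0.42 ± 0.09 for Nde1, which recruits dynein in mitosis, and -0.29 ± 0.10 for the dynactin subunit Dctn6.

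The tubulins, which form the tracks, divided: of 14 genes, 5 rose and 6 fell, with a median log2 change of 0.05. Tubb4b was at -1.01 ± 0.12 (SE) and Tubg1, the gamma-tubulin that nucleates microtubules at spindle poles, at -0.72 ± 0.11, while Tuba1a was at 0.75 ± 0.10. Tubb1, the tubulin of platelets and megakaryocytes, was at 2.03 ± 0.34, beside the 7 of 7 platelet genes called higher. Of 11 ciliary transport and Hedgehog genes, 1 rose and 3 fell, with a median of -0.25, a share called that is near the 35.7% of all tested genes. Smo, the Hedgehog signal transducer, was at -1.19 ± 0.30, Ift88 at 0.76 ± 0.18, Ift140 at -0.38 ± 0.10 and Ift80 at -0.43 ± 0.14.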

How the data were processed

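Per the labels' protocols, mRNA was purified with poly-T beads, fragmented, copied with random hexamers and amplified. The authors deposited whole-number read counts per gene and FPKM for all 10 libraries. The submitters' processing notes name GRCm38 (mm10). Aligner, counter and strand setting were not given in the sources used here. Overlapping, antisense or near-identical genes therefore may share reads.

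Counts were tested with edgeR 4.0.16 (R 4.3.3): filterByExpr, TMM scaling, the robust quasi-likelihood test of fibrosis against control over all 14283 genes kept (99.9% of counts), and Benjamini-Hochberg adjustment over all of them, with calls at adjusted p under 0.05. CPM are TMM-scaled. SE is the log2 change divided by the square root of F. Library means used log2(CPM + 0.5). FPKM served only for levels between genes and for alternatives with limma 3.58.1. DESeq2 1.42.0 was a further alternative. On simulated counts with 200 of 14283 genes changed, 88.9% of 2-fold and 100% of 4-fold changes were found, and 3.59% of calls were false. The simulation gave every gene the same dispersion, changed far fewer genes than were called here and held no cell type differences among libraries. Its shares may therefore not hold for the real libraries.

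The members and gene lists were chosen with earlier results of these data known. Values per library are given for the mitotic kinesins, the other members called with the 6 largest rises, those called lower (up to 6 were to be given, and 4 were called), and the 4 most abundant others not called. Up to 4 genes with the smallest p are named per pathway list. Cenpe, Cep55, the Lin genes, Rbbp4, the spindle partners not called and the members named beyond this were added after their values were seen. Protein sequences were not analysed here. Marker lists whose calls are not given above gave these calls, higher and lower: 1 and 0 of 6 plasma cell, 1 and 0 of 10 T cell, 3 and 0 of 7 NK cell, 4 and 0 of 7 dendritic cell, 0 and 0 of 8 macrophage and monocyte, and 0 and 0 of 8 neutrophil genes.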

Additional observations from a re-analysis of the deposited data

Results flagged for a closer look

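In 7 of 130 groups of 5 libraries looked at, over the kinesins and the partner genes named, 1 library stood apart from the other 4 by more than 0.71 of the group's range. Chance alone gives about 1 in 20 such groups. Among kinesins, Kif1bp was highest in control library 5 at 32.0 CPM (others 25.6 to 27.0), Kifc2 highest in fibrosis library 3 at 7.48 CPM (others 3.51 to 4.55), and Kif5a lowest in control library 5 at 0.727 CPM (others 1.117 to 1.27). Among partner genes, Anln was highest in fibrosis library 4 at 16.3 CPM (others 9.86 to 11.5) and Dynlt3 highest in control library 3 at 21.1 CPM (others 16.3 to 17.7). Pafah1b1 was highest in control library 3 at 138 CPM (others 115 to 121) and lowest in fibrosis library 1 at 125 CPM (others 154 to 158).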

How the results depend on the processing

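Over the 24 alternative settings run for each kinesin, no kinesin called higher or lower changed direction. There were 11 mitotic falls in the settings run, with 3 exceptions. These were 10 at a threshold of 0.01, 10 when Kifc1 was left out of the list, and 1 with the erythroid covariate. The covariate fit gave 0 mitotic rises and medians of -0.62 (mitotic) and 0.12 (other). It gave 0 rises and 0 falls among other kinesins, 0 and 1 among all members, and 91 and 74 over all genes. This fit has 1 more term, whose values did not overlap between the groups, and the cause was not tested. Library size scaling gave 5 rises among other and among all kinesins and medians of 0.064 (other) and -0.062 (all genes), with 1777 genes higher and 3306 lower (35.0% of calls higher, beside 52.0%). A threshold of 0.01 gave 1547 genes higher and 4 kinesins higher, all 4 among the others. The median of the other kinesins was 0.12 with voom, 0.11 and 0.12 on FPKM + 1 and FPKM + 0.1, and 0.072 without fibrosis libraries 4 and 5. The mitotic median was -0.89 on FPKM + 1, where the pseudocount shrinks changes of low genes, and the median of all genes was -0.0082 with no count filter. For these the cause was not tested.

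Leaving out each library in turn gave 11 mitotic falls each time and a mitotic median of -1.26 to -1.08. For the other kinesins it gave 6 to 8 rises, 3 to 4 falls and a median of 0.086 to 0.17. The labels name no pairs. Deviations of same-numbered libraries correlated at -0.29 to 0.47 over 5 numbers, and 2 of 5 fitted their own number best. So few numbers cannot settle whether replicate numbers mark pairs. With the replicate block, 8 kinesins rose and 15 fell, and 2677 genes were higher and 2534 lower. Depth limits the 10 untested members.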

Other observations

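Beside the 43 protein-coding members, 4 non-coding genes carry a matching name. Over all 10 libraries the antisense gene Kif16bos had 12 counts, and the pseudogenes Kifc5c-ps, Kif4-ps and Kif22-ps had 8, 1 and 1.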
